A study of Mus musculus with 11 samples.

Results

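Lysosomes are acidic organelles in which soluble hydrolases break down proteins, lipids and sugars delivered by endocytosis, phagocytosis and autophagy. Their membrane is lined by heavily glycosylated proteins, of which LAMP1 and LAMP2 are the most abundant, and most soluble hydrolases reach them with a mannose 6-phosphate tag. Every cell of the embryonic cortex holds lysosomes, and phagocytes such as microglia are especially rich in them. In the nervous system, inherited loss of several of these proteins causes neuronal storage disease, as for cathepsin D, NPC2, prosaposin and progranulin.

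The 9 genes described here encode 4 cathepsins (Ctsd, Ctsb, Ctsl and Ctsz), 3 other soluble lysosomal proteins (Psap, Grn and Npc2) and both LAMP proteins (Lamp1 and Lamp2). They were chosen by name, with earlier results of these data known, and each matched a single locus among the 24138 loci of the deposited expression table. Expression was measured in the E14.5 mouse cortex in 2 conditional knockout (cKO) libraries, labelled Chd8 c/c with Emx1-cre, and in 3 control libraries. The controls carry no Cre in their labels, and their genotype is given as Chd8 c/+ for replicate 1 and as Chd8 c/c for replicates 2 and 3. Chd8 encodes a chromatin remodeller tied to autism in humans, and Emx1-Cre acts in dorsal telencephalic progenitors and their progeny, so that cells of other origin in the dissected tissue keep the gene. Whether each library stands for 1 embryo or several is not in the labels. By Xist and Y-linked genes, the 2 cKO libraries differed in sex, and control replicate 3 differed in sex from replicates 1 and 2. Together with the labelled genotypes of control replicates 1 and 2, this places the libraries of each group in different embryos. The p-values measure only the spread between these libraries. The series also held 6 ATAC-seq samples, which were not analysed here.

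Values are FPKM, fragments scaled by transcript length and by the mapped fragments of the library, so that levels of different genes can be compared per length. All 9 genes lay far above the filter of a mean of 1 FPKM in every library, and the tests ran over the 12672 loci that reached it. A log2 change is the cKO mean minus the control mean of log2(FPKM + 1), which understates the change of genes at low levels. The libraries held between 12237 and 12717 loci at 1 FPKM or more, and their sequencing depth is unknown. Chd8 itself was at 19.3 and 15.1 FPKM in the cKO libraries, against 31.5, 30.0 and 31.8 FPKM in the controls. None of the 8 markers of cortical identity was at 0 in any library. Of these, 6 had a negative log2 change, as did 6733 of the 12672 tested loci. Both cKO libraries lay below every control for 2 of the 8, Emx1 and Eomes, and above every control for 1, Tbr1. Of all tested loci, 15.6% lay below and 13.4% above in this way. The extraction text refers once to Eed cKO tissue, whereas the genotype and title of each sample give Chd8.

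The comparison of cKO with control asks how transcript levels differ in this tissue after Chd8 deletion. Among the lysosomal genes, Ctsd was the furthest apart between groups, at 1.62 times the control mean in cKO cortex, followed by Lamp2 at 1.48 times and Ctsb at 1.38 times. Of the 9 genes, 8 had a positive log2 change, as did 46.9% of all tested loci, and the exception was Npc2. In 5 genes, Ctsd, Ctsb, Psap, Lamp1 and Lamp2, both cKO libraries lay above every control library, a share of 55.6% where 13.4% of all tested loci did so. No gene of the 9 lay below every control in both cKO libraries, as 15.6% of all tested loci did. The median log2 change of the 9 genes was 0.32, beside -0.02 over all tested loci, and it was 0.18 without cKO replicate 2. None of the 9 passed limma's test at an adjusted p under 0.05 over all loci, a threshold that 0.0473% of loci passed. At an unadjusted p under 0.05, Ctsd, Ctsb and Lamp2 were higher, as were 3.08% of all tested loci, and none of the 9 was lower, as were 4.37%. In the authors' deposited table, Ctsd alone of the 9 was marked significant, where 4.21% of the loci with a valid test were marked and 1.21% were marked and higher in cKO. In RNA of whole cortex, more cells of a type and more RNA per cell cannot be told apart.

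**Figure D1:**
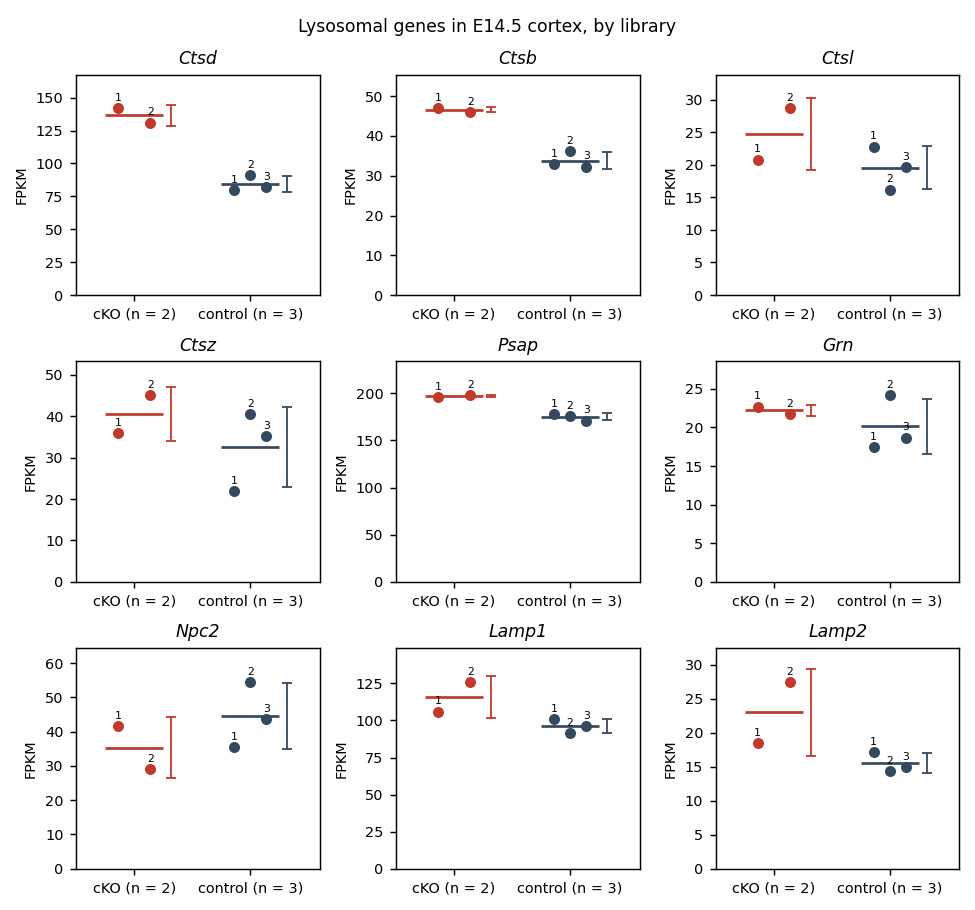
FPKM of the 9 genes in each library, with cKO libraries (red, n = 2) left of control libraries (dark, n = 3); numbers are replicate numbers, horizontal lines are means and bars are 1 SD. The groups do not overlap for Ctsd, Ctsb, Psap, Lamp1 and Lamp2, and they overlap for Ctsl, Ctsz, Grn and Npc2.

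Ctsd encodes cathepsin D, the main aspartic protease of lysosomes (locus XLOC_020448; chromosome 7, 142375910 to 142387827 in GRCm38). Its level was 142 and 131 FPKM in cKO libraries 1 and 2, against 79.8, 91.4 and 82.0 FPKM in control libraries 1, 2 and 3. Both cKO libraries thus lay well clear of the controls, with a gap of 39.5 FPKM between the lower cKO and the highest control library. The mean was 136 ± 7.74 FPKM in cKO and 84.4 ± 6.12 FPKM in control (SD, n = 2 and 3). The log2 change was 0.69 (SE 0.14, 95% interval 0.34 to 1.03), with a limma adjusted p of 0.575 over all loci. By unadjusted p it ranked 55 among the tested loci, and 2.01% of them had a higher log2 change. The p of an exact two-sided permutation test was 0.1, and 2 against 3 libraries cannot give a lower one. Ctsd had a log2 fold change of 0.69 and a q-value of 0.0059 in the authors' deposited table.

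The stretch before the start of Ctsd is shown because this gene differed most, and that of Lamp1 because it holds the most copies of the same letters. Capitals mark CACGTG, and the seventh base where it extends to TCACGTG on either strand, the letters at the core of the element through which the factors TFEB, TFE3 and MITF are known to act on lysosomal genes. The stretches of Lamp2 and Npc2 are given as the sister gene of Lamp1 and as the gene with the opposite sign. Each is the 250 bases before the RefSeq start in GRCm38.p6, on the gene's own strand.
Ctsd, chr7:142387828-142388077, minus strand: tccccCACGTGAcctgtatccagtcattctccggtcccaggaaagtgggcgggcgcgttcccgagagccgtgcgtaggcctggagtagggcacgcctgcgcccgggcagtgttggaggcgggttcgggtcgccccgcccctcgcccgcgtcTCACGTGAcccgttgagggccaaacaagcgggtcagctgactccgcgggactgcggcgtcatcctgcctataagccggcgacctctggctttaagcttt
Lamp1, chr8:13158911-13159160, plus strand: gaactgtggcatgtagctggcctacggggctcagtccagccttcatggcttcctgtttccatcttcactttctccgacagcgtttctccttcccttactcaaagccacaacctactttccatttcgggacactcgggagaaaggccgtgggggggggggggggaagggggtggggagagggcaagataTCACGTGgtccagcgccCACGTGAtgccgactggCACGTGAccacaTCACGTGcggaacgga
Lamp2, chrX:38456461-38456710, minus strand: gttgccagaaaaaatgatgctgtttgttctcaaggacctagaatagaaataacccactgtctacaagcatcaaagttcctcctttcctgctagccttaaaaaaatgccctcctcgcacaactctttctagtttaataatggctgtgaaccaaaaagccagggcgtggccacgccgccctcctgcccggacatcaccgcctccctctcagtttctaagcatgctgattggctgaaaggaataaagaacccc
Npc2, chr12:84773113-84773362, minus strand: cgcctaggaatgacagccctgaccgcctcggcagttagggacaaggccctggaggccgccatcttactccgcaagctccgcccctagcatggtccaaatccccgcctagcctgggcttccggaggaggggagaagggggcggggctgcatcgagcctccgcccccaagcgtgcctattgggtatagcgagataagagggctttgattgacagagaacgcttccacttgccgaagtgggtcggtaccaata
The Ctsd stretch held CACGTG at 245 and 98 bases before the start, and both copies extended to TCACGTG on one strand or both. The Lamp1 stretch held 4 copies, at 61, 45, 28 and 15 bases before the start, and all 4 extended to TCACGTG, while 7 of 32851 RefSeq promoter stretches (0.0213%) held at least 4 copies of CACGTG. The stretches of Lamp2 and Npc2 held none, nor did those of Ctsz, Grn and Psap. The RefSeq stretch of Ctsl belongs to an internal start and lies wholly inside the annotated gene, downstream of its outermost start, and it held CACGTG at 236 bases before that internal start without the seventh base. RefSeq stretches were found for 8 of the 9 genes, Ctsb being the exception. TCACGTG on either strand, which contains CACGTG, was present for 2 of these 8 genes, for 27 of 126 other genes of the lysosomal lists described below (21.4%) and for 968 of all 27025 genes (3.58%).

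Ctsb encodes cathepsin B, a cysteine protease that acts both as an endopeptidase and as a dipeptidyl carboxypeptidase (chromosome 14, 63122462 to 63145923). It was at 47.0 and 46.1 FPKM in the cKO libraries, against 32.9, 36.2 and 32.3 FPKM in the controls. The cKO libraries differed from each other by less than the controls did, and both lay above every control by at least 9.9 FPKM. The log2 change was 0.45 (SE 0.12, 95% interval 0.15 to 0.76; limma adjusted p = 0.575), and it ranked 193 by unadjusted p. Its log2 fold change was 0.46 in the authors' deposited table, with a q-value of 0.224.

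The other cysteine cathepsins overlapped between groups. Ctsl, which encodes the endopeptidase cathepsin L, was at 20.8 and 28.7 FPKM in the cKO libraries, against 22.8, 16.2 and 19.7 FPKM in the controls. Its cKO replicate 1 lay within the range of the controls, and the log2 change of 0.32 (SE 0.21) was 0.10 if cKO replicate 2 was left out and stood at 0.54 if cKO replicate 1 was. Ctsz encodes cathepsin Z, a carboxypeptidase also called cathepsin X, and was at 35.9 and 45.1 FPKM in the cKO libraries, against 21.9, 40.5 and 35.2 FPKM in the controls. Control replicate 1 was the low library, and the log2 change of 0.34 (SE 0.29) was 0.09 if that library was left out and 0.52 if control replicate 2 was. Within the controls, the highest value of Ctsz was 1.85 times the lowest, the widest spread of the 9 genes, where that of Ctsd was 1.14 times. The limma adjusted p was 0.615 for Ctsl and 0.663 for Ctsz.

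Psap encodes prosaposin, the precursor of the saposins that lysosomal enzymes need to degrade sphingolipids, and was the most abundant of the 9. It was at 196 and 198 FPKM in the cKO libraries, against 178, 176 and 171 FPKM in the controls, and 2.14% of tested loci had a higher mean level. The groups did not overlap, and the values were close within each group, yet the difference was small. The mean was 197 ± 1.41 FPKM in cKO and 175 ± 3.54 FPKM in control (SD, n = 2 and 3), or 1.13 times. The log2 change was 0.17 (SE 0.13, 95% interval -0.16 to 0.50; limma adjusted p = 0.643). The limma test moderates the spread of each locus towards that of loci of like abundance.

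Grn encodes progranulin, a secreted and lysosomal glycoprotein whose loss causes frontotemporal dementia in human carriers and a storage disease when both copies are lost. It was at 22.7 and 21.7 FPKM in the cKO libraries, against 17.5, 24.2 and 18.7 FPKM in the controls. Both cKO values lay inside the range of the controls, above replicates 1 and 3 and below replicate 2. Its log2 change was 0.15 (SE 0.17; limma adjusted p = 0.74), with 0.06 if control replicate 1 was left out and 0.28 if control replicate 2 was.

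Npc2 encodes the soluble sterol carrier that hands cholesterol to NPC1 in the lysosomal membrane, and its sign was opposite to that of the others. It was at 41.6 and 29.1 FPKM in the cKO libraries, against 35.4, 54.5 and 43.6 FPKM in the controls. The lowest of the 5 libraries was cKO replicate 2, and the highest was control replicate 2, while cKO replicate 1 lay between the controls. The log2 change was -0.32 (SE 0.24, 95% interval -0.93 to 0.29; limma adjusted p = 0.642). Without cKO replicate 2 it was -0.07, without cKO replicate 1 it was -0.57 and without control replicate 2 it was -0.17. Npc2 stood at -0.33 on the log2 scale in the authors' deposited table, with a q-value of 0.336. Set against Ctsd within each library, the pair moved apart, with a ratio of Ctsd to Npc2 FPKM of 3.41 and 4.49 in the cKO libraries, against 2.26, 1.68 and 1.88 in the controls.

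The membrane proteins were both higher in both cKO libraries than in any control. Lamp1 was at 106 and 126 FPKM in the cKO libraries, against 101, 91.5 and 96.1 FPKM in the controls (chromosome 8, 13159161 to 13175338). Its cKO replicate 1 exceeded the highest control by 5.92 FPKM, and its log2 change of 0.27 (SE 0.14, 95% interval -0.09 to 0.63; limma adjusted p = 0.575) was 0.15 without cKO replicate 2. Lamp2, which lies on the X chromosome and encodes the isoforms that include the receptor of chaperone-mediated autophagy, was the least abundant of the 9 in controls. It was at 18.5 and 27.5 FPKM in the cKO libraries, against 17.2, 14.4 and 15.0 FPKM in the controls. The lower cKO library exceeded the highest control by 1.31 FPKM, and cKO replicate 2 stood much further above them. Its log2 change of 0.51 (SE 0.20, 95% interval 0.02 to 1.01; limma adjusted p = 0.575) was 0.24 if cKO replicate 2 was left out and 0.79 if cKO replicate 1 was. In the authors' deposited table the q-value was 0.114. The table gives a single value per locus, so the isoforms of Lamp2 were not separated.

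**Figure D2:**
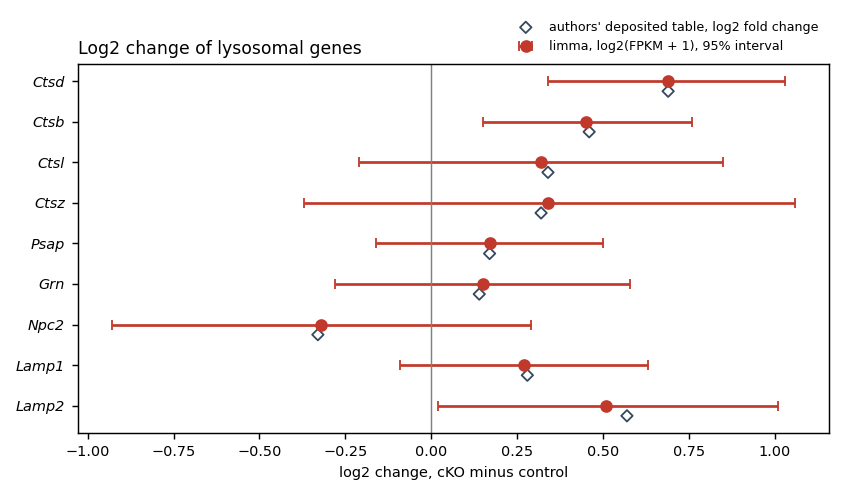
Log2 change of each gene, cKO minus control, with its 95% interval from limma on log2(FPKM + 1) (red circles) and the log2 fold change of the authors' deposited table (open diamonds). The interval lies above 0 for Ctsd, Ctsb and Lamp2, before adjustment over all loci, and includes 0 for the other 6 genes.

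The order of the levels in FPKM differed in places between the groups. In cKO it ran from Psap over Ctsd, Lamp1, Ctsb, Ctsz, Npc2, Ctsl and Lamp2 to Grn, and in control from Psap over Lamp1, Ctsd, Npc2, Ctsb, Ctsz, Grn and Ctsl to Lamp2. Neighbours whose libraries overlapped were, in cKO, Ctsz with Npc2, Ctsl with Lamp2 and Lamp2 with Grn. In control, the neighbours from Npc2 down to Lamp2 all overlapped, while Psap, Lamp1 and Ctsd were separate from each other and from the rest, the last pair only just. Ctsd stood above Lamp1 in both cKO libraries, at 1.33 and 1.04 times its FPKM, against 0.794, 0.999 and 0.853 times in the controls. Ctsb stood above Npc2 in both cKO libraries, at 1.13 and 1.58 times, against 0.929, 0.665 and 0.741 times in the controls.

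Summed over the 9 genes, the level was 631 and 653 FPKM in the cKO libraries, against 505, 545 and 514 FPKM in the controls. That was 0.142% and 0.156% of the summed FPKM of the cKO libraries, against 0.120%, 0.113% and 0.116% of that of the controls. Relative to each gene's own mean over the 5 libraries, 8 of the 9 genes were high in each cKO library, against 1, 3 and 2 genes in control replicates 1, 2 and 3. The average deviation on the log2(FPKM + 1) scale was 0.12 and 0.22 in the cKO libraries, against -0.19, -0.03 and -0.12 in the controls, so control replicate 2 stood nearest to the cKO libraries.

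Markers of microglia and macrophages were also higher in the cKO libraries. Of 21 listed markers, 16 were tested, 15 had a positive log2 change and in 13 both cKO libraries lay above every control, beside 46.9% and 13.4% of all tested loci. The list was not uniform. Sall1 had a log2 change of -0.30, and Cx3cr1 was at 4.58 and 0.875 FPKM in cKO, against 1.92, 2.51 and 1.90 FPKM in control. Among untested markers, Tmem119 lay below every control in both cKO libraries, and Mrc1 and Ptprc lay above. The summed level of the 21 markers was 136 and 133 FPKM in cKO, against 58.9 to 90.7 FPKM in control, and none was at 0 in any library. The highest of the controls was again replicate 2. Markers of the ventral telencephalon were higher as well, with a summed level over 7 genes of 394 and 489 FPKM in cKO, against 201 to 344 FPKM in control. All 7 had a positive log2 change, and in 6 both cKO libraries lay above every control, beside 46.9% and 13.4% of all tested loci. The groups overlapped for Nkx2-1, at 14.4 and 64.5 FPKM in cKO, against 21.3, 4.12 and 46.7 FPKM in control. Endothelial and pericyte markers summed to 96.7 and 106 FPKM in cKO, against 80.0 to 92.5 FPKM in control. The median log2 change of that list was 0.09, and its highest was 0.75 for Rgs5, at 19.4 and 27.4 FPKM in cKO against 15.9, 11.4 and 13.1 FPKM in control. Sums overlapped between groups for meningeal markers (7.64 and 5.52 FPKM in cKO, 4.26 to 25.3 FPKM in control). Those of erythroid markers overlapped too (333 and 564 FPKM in cKO, 356 to 365 FPKM in control). The part of any of these cells in the values of the lysosomal genes was not tested.

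**Figure D3:**
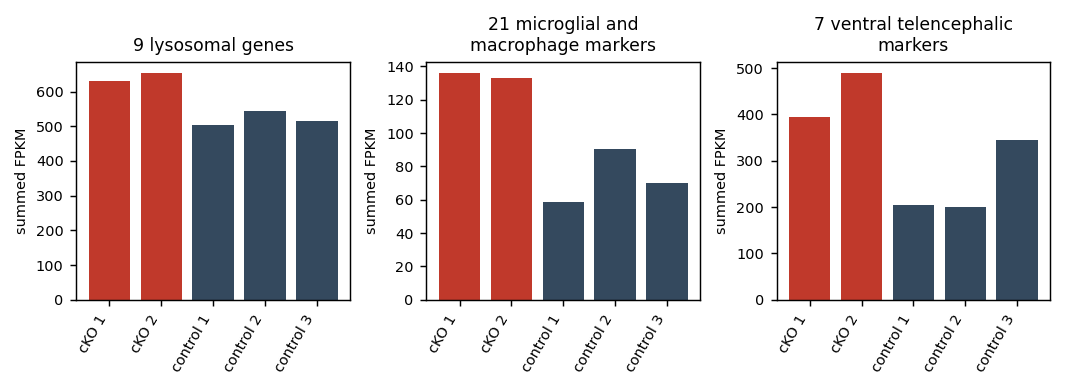
Summed FPKM per library of the 9 lysosomal genes, of 21 microglial and macrophage markers and of 7 ventral telencephalic markers, with cKO libraries (red) left of control libraries (dark). All 3 sums are higher in both cKO libraries than in any control.

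The sex of the embryos differed between libraries and was balanced in part. Xist was at 72.3 FPKM in cKO replicate 1 and at 86.3 and 67.4 FPKM in control replicates 1 and 2, and Y-linked genes summed to 54.9 FPKM in cKO replicate 2 and 50.3 FPKM in control replicate 3, with the other libraries near 0 for each. Among the female libraries, 8 of the 9 genes were higher in cKO (n = 1) than the mean of the controls (n = 2), and among the male libraries 8 of 9 were higher in cKO (n = 1) than in control (n = 1). The share of all tested loci higher in cKO within each sex was not counted, so these counts have no background beside them. Ctsd in cKO was 1.66 times the control value among the female libraries and 1.6 times among the male ones. The X-linked Lamp2 was 1.17 times the control value among the female libraries and 1.83 times among the male ones.

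Other lysosomal proteases did not share a direction. Of 12 listed, 11 were tested, and in 5 of them both cKO libraries lay above every control while in 3 both lay below, beside 13.4% and 15.6% of all tested loci. Their median log2 change was 0.17, ranging from -0.51 to 0.79, and it was -0.04 without cKO replicate 2, 0.38 without cKO replicate 1 and -0.16 among loci averaging 5 FPKM or more. Ctsc, which encodes the activator of granule serine proteases in immune cells, was at 2.76 and 2.69 FPKM in the cKO libraries, against 0.932, 1.40 and 1.17 FPKM in the controls. Ctss, a cathepsin of antigen-presenting cells and microglia, was at 7.47 ± 0.846 FPKM in cKO and 3.99 ± 0.882 FPKM in control (SD, n = 2 and 3). Lgmn, the asparaginyl endopeptidase that processes cathepsins to their mature chains, was at 33.7 and 37.4 FPKM in the cKO libraries, against 22.1, 27.4 and 25.4 FPKM in the controls. Dpp7, a dipeptidyl peptidase, was at 5.08 ± 0.138 FPKM in cKO and 7.65 ± 0.708 FPKM in control (SD, n = 2 and 3). In limma the adjusted p of these 4 genes was 0.575 each. Ctsc was marked significant in the authors' deposited table, with a q-value of 0.0481.

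The enzymes that degrade sugars, lipids and nucleic acids were centred near the median of all loci. Of 37 listed genes, 35 loci were tested, with a median log2 change of -0.03. In 3 (8.57%) both cKO libraries lay above every control and in 4 (11.4%) below, shares under the 13.4% and 15.6% of all tested loci. Gusb, beta-glucuronidase, was at 6.30 ± 1.20 FPKM in cKO and 4.35 ± 0.599 FPKM in control (SD, n = 2 and 3). Naglu, an alpha-N-acetylglucosaminidase that acts on heparan sulfate, was at 3.12 ± 0.0117 FPKM in cKO and 4.67 ± 0.805 FPKM in control, and Sgsh, a sulfamidase of the same pathway, was at 0.622 ± 0.145 FPKM in cKO and 1.30 ± 0.291 FPKM in control (SD, n = 2 and 3).

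Other lysosomal membrane proteins had a median log2 change of 0.04 over 30 tested loci, with 3 above every control in both cKO libraries and 4 (13.3%) below, near or under the 13.4% and 15.6% of all tested loci. Laptm5, a membrane protein of blood-derived cells and microglia, had the lowest adjusted p of all the lysosomal lists (limma adjusted p = 0.378) and was marked significant in the authors' deposited table, with a q-value of 0.0202. Its level was 8.93 and 8.80 FPKM in the cKO libraries, against 3.59, 3.97 and 4.10 FPKM in the controls. Mfsd8, a transporter-like protein mutated in a neuronal ceroid lipofuscinosis, was at 8.61 ± 0.494 FPKM in cKO and 5.53 ± 0.430 FPKM in control (SD, n = 2 and 3). Ostm1, the partner of the chloride transporter ClC-7, was at 14.1 ± 2.01 FPKM in cKO and 10.3 ± 1.12 FPKM in control, and the peptide transporter Abcb9 was at 2.92 ± 0.244 FPKM in cKO and 4.61 ± 1.17 FPKM in control (SD, n = 2 and 3).

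The proton pump that acidifies lysosomes had 14 of 18 tested loci with a positive log2 change, where 46.9% of all tested loci did so, and a median of 0.18. In 8 loci (44.4%) both cKO libraries lay above every control and in 1 (5.56%) below, beside 13.4% and 15.6% of all tested loci. The differences were modest. Atp6v1a, the catalytic subunit, was at 49.4 and 54.1 FPKM in the cKO libraries, against 46.8, 31.3 and 38.5 FPKM in the controls. Atp6v0d1, a subunit of the membrane sector, was at 156 ± 22 FPKM in cKO and 127 ± 0.473 FPKM in control (SD, n = 2 and 3). The locus of Atp6v0c is joined with a pseudogene, so its value of 20.5 ± 2.94 FPKM in cKO and 14.2 ± 1.61 FPKM in control (SD, n = 2 and 3) cannot be assigned to the gene alone. Atp6v1f was the subunit below every control, at 84.3 ± 11.7 FPKM in cKO and 106 ± 12.3 FPKM in control (SD, n = 2 and 3). No locus of the list was called by limma, the lowest adjusted p being 0.575. At an unadjusted limma p under 0.05, 1 was higher, as were 3.08% of all tested loci, and none was lower, as were 4.37%.

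Genes that sort hydrolases to lysosomes had a median log2 change of -0.09, beside -0.02 over all loci, and 3 of the 13 tested had a positive one, where 46.9% of all tested loci did so. None lay above every control in both cKO libraries and 3 (23.1%) lay below, beside 13.4% and 15.6% of all tested loci. Gnptg, a subunit of the enzyme that makes the mannose 6-phosphate tag, was at 29.8 and 30.5 FPKM in the cKO libraries, against 35.5, 36.5 and 38.6 FPKM in the controls. Nagpa, which uncovers the tag, was at 3.47 ± 0.965 FPKM in cKO and 5.33 ± 1.45 FPKM in control (SD, n = 2 and 3). The sorting adaptor Gga1 was at 35.8 and 24.8 FPKM in the cKO libraries, against 32.1, 55.8 and 39.7 FPKM in the controls, and the sorting receptor Sorl1 at 8.99 ± 1.82 FPKM in cKO and 12 ± 4.13 FPKM in control (SD, n = 2 and 3).

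**Figure D4:**
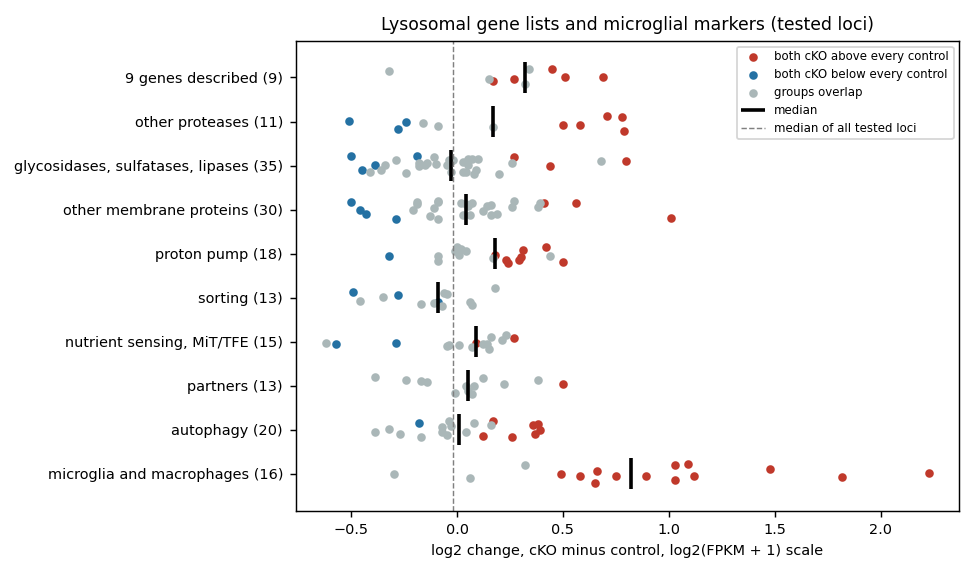
Log2 change, cKO minus control, of every tested locus in the lysosomal lists and the microglial and macrophage markers, with the number of loci in brackets; red and blue points are loci with both cKO libraries above or below every control, black bars are list medians and the dashed line is the median of all tested loci. Medians run from -0.09 for sorting to 0.32 for the 9 genes among the lysosomal lists, and the microglial median is 0.82.

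Regulators of lysosomal genes and of nutrient sensing on the lysosome had a median log2 change of 0.09 over 15 tested loci, with 2 (13.3%) above every control in both cKO libraries and 2 below, near the 13.4% and 15.6% of all tested loci. Tfe3, one of the factors that bind the letters marked before Ctsd and Lamp1, was at 10.8 and 7.97 FPKM in the cKO libraries, against 13.3, 16.4 and 13.2 FPKM in the controls. Both cKO libraries lay below every control, with a log2 change of -0.57 (SE 0.18, limma adjusted p = 0.575). Any action of TFE3 on Ctsd, Lamp1 or other genes in this tissue was not tested. Its relatives Tfeb, Mitf and Tfec stayed under a mean of 1 FPKM and were not tested. Rptor, the scaffold of mTORC1, was at 13.0 ± 0.633 FPKM in cKO and 16.2 ± 1.34 FPKM in control (SD, n = 2 and 3). The Ragulator subunit Lamtor1 was at 41.9 and 22.4 FPKM in the cKO libraries, against 34, 64.1 and 49.9 FPKM in the controls, and Lamtor3, another subunit, at 15.5 ± 2.75 FPKM in cKO and 12.6 ± 0.609 FPKM in control (SD, n = 2 and 3).

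Over these 6 lists and those of core autophagy genes and of partners of the 9 proteins together, each locus counted once and the 9 genes left out, 28 of 146 tested loci (19.2%) lay above every control in both cKO libraries and 18 (12.3%) below, beside 13.4% and 15.6% of all loci. The count above was 49 without control replicate 1, and the count below was 32 without control replicate 3. Fewer libraries make separation easier for any locus, so these 2 counts cannot be set beside the shares over 5 libraries. None of the 146 was called by limma, where 0.0473% of all tested loci were. At an unadjusted limma p under 0.05, 10 were higher and 3 lower, beside 3.08% and 4.37% of all tested loci. The authors marked 3 of the 146 as significant, all higher in cKO, namely Ctsc, Laptm5 and Ids. Of all loci with a valid test by the authors, 1.21% were marked and higher in cKO, and 3.0% were marked and lower. Ids, which encodes iduronate 2-sulfatase and is named here after its values were seen, was at 50.5 and 57.2 FPKM in the cKO libraries, against 52.5, 22.4 and 30.8 FPKM in the controls, so that control replicate 1 lay between the cKO libraries.

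The 5 loci whose profile over the 5 libraries was nearest to the average of the 9 genes were Osgin2, Atl3, Inip, Fabp7 and Cav2, with root mean square differences of 0.014, 0.025, 0.026, 0.027 and 0.032 on the log2(FPKM + 1) scale. Among the 9 genes themselves that difference ran from 0.082 for Psap to 0.382 for Npc2. Fabp7, the brain fatty acid-binding protein of radial glia, was the most abundant of the 5, at 748 ± 48.3 FPKM in cKO and 631 ± 37.1 FPKM in control (SD, n = 2 and 3). In all 5 loci both cKO libraries lay above every control as in the average they were matched to, and the likeness over 5 libraries is a description only.

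**Figure D5:**
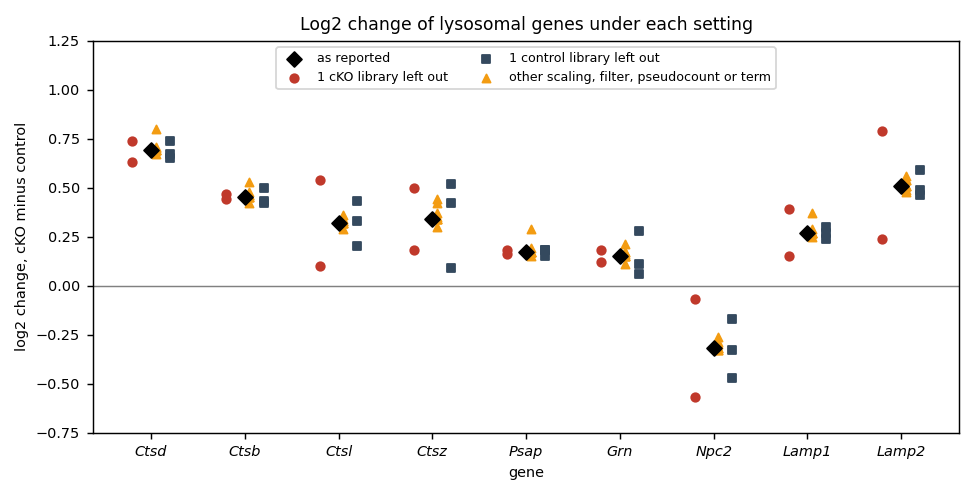
Log2 change, cKO minus control, of the 9 genes as reported (black diamonds), with 1 cKO library left out (red), with 1 control library left out (dark squares) and under the other settings (orange triangles). No gene changes sign, Ctsd stays between 0.63 and 0.80, and Ctsl, Ctsz, Lamp2 and Npc2 move most when a single library is left out.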

How the data were processed

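RNA of E14.5 mouse cortex was measured in 2 cKO and 3 control libraries, grouped by the sample titles. The submitters' processing notes name TopHat, Cufflinks and mm10, with no role or version, beside CASAVA, Bowtie2 and MACS. Which annotation and strand setting were used is not given in the sources used here. Per the file headers, the authors deposited FPKM for each locus in each library. Their deposited comparison gives a log2 fold change for each locus, with its test score, its p-value and its q-value. FPKM holds no counts and is relative, so abundant transcripts in a library depress the rest. Low values did not fall on shared steps: at most 13.4% of loci under 0.05 FPKM had the commonest ratio to control replicate 1, within 0.02 on the log2 scale. Depth is therefore unknown and no count test was possible.

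The 12672 loci averaging 1 FPKM or more were tested on log2(FPKM + 1). The tool was limma 3.58.1 in R 4.3.3, with a trend in the variance and Benjamini-Hochberg adjustment over those loci. The script was tested on simulated data, and 3 residual degrees of freedom were left. The libraries were all different (Pearson r of 0.880 to 0.933 across loci). The 9 genes and the gene lists were chosen with earlier results of these data known. Emx1, Eomes, Tbr1, Ids, Rgs5, Nkx2-1, Sall1, Cx3cr1, Tmem119, Mrc1 and Ptprc were named after their values were seen. Named besides these, the 9 genes and Chd8 were the 4 loci of each lysosomal list with the smallest unadjusted p and the 5 loci nearest in profile. A result for 1 of these loci is not reported here. Gene positions and promoter stretches came from RefSeq's GRCm38.p6, matched by symbol. The protein sequences were not used here. Of the alternatives run, 12 were planned and 1, the sex term, was chosen after seeing the data.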

Additional observations from a re-analysis of the deposited data

How the results depend on the processing

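Every one of the 9 genes kept its sign under all 13 alternatives, none passed the threshold under any of them (lowest limma adjusted p 0.324), and 8 had a positive log2 change throughout. The count of the 9 with every cKO library above every control was 5 under other filters, pseudocounts and scalings and 5 to 7 with 1 library left out, where fewer libraries make separation easier. Of the other named genes run under the alternatives, Arsa alone changed sign with 1 library left out, from -0.50 to 0.02, the last without cKO replicate 2. The genes named after their values were seen, such as Cx3cr1 and Ids, were not run under the alternatives, so their signs there are unknown. Quantile normalization moved the median log2 change of the proton pump to 0.27, of regulation to 0.14 and of autophagy to 0.07, and centring moved that of regulation to 0.12. The other proteases were at 0.04 without a filter and at -0.16 with a mean of at least 5 FPKM, where fewer genes are tested. With 1 library left out, medians ran from 0.18 to 0.44 for the 9 genes, -0.04 to 0.38 for other proteases, 0.06 to 0.12 for regulation and -0.01 to 0.06 for autophagy. In the same settings, of the 146 loci of the lysosomal lists, those above every control numbered 31 to 49 and those below 25 to 40. As fewer libraries make separation easier, these counts cannot be set beside the 28 and 18 over 5 libraries. Where a single cKO library remains, it is assumed to vary like the controls.

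Over all loci, 6 were called as reported, 8 to 35 with 1 library left out and 3 with sex as a term. With the replicate number as a block, 3 loci were called and the median for regulation was 0.12. That fit leaves control replicate 3 without weight. Same-numbered libraries deviated with r = -0.07 and -0.11, so the numbers were not taken as pairs. The causes of these shifts were not tested. Without counts, the precision of single values is unknown, and 2 against 3 libraries limit every comparison.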

Other observations

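Core autophagy genes, which bring cytoplasmic cargo to lysosomes, had a median log2 change of 0.01 over 20 tested loci, and 7 of them had both cKO libraries above every control and 1 had both below, beside 13.4% and 15.6% of all tested loci. Gabarapl2, a ubiquitin-like protein of the autophagosome membrane, was at 23.9 and 27.7 FPKM in the cKO libraries, against 19.2, 19.4 and 19.6 FPKM in the controls. Atg12, the ubiquitin-like modifier of ATG5, was at 45.4 ± 7.84 FPKM in cKO and 34.5 ± 3.53 FPKM in control (SD, n = 2 and 3). Rb1cc1, the FIP200 subunit of the initiating kinase complex, was at 14.7 ± 1.09 FPKM in cKO and 11.3 ± 1.89 FPKM in control, and the kinase Ulk2 at 41.7 ± 3.14 FPKM in cKO and 32.3 ± 5.01 FPKM in control (SD, n = 2 and 3). None was called by limma (lowest adjusted p 0.575). At an unadjusted limma p under 0.05, 1 locus of the list was higher, as were 3.08% of all tested loci, and none was lower, as were 4.37%.

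Genes listed for a link to the 9 proteins, among them inhibitors, receptors and clients, stayed close to the median of all loci. Their median log2 change was 0.05 over 13 tested loci, and 1 (7.69%), Lgmn, lay above every control, beside 13.4% of all tested loci. Tmem106b, a lysosomal membrane protein tied genetically to progranulin disease, was at 11.3 and 13.1 FPKM in the cKO libraries, against 11.9, 7.28 and 8.67 FPKM in the controls. Arsa, the sulfatase that needs a saposin, was at 5.54 ± 1.65 FPKM in cKO and 6.62 ± 0.528 FPKM in control, and Celsr2 at 26.2 ± 3.18 FPKM in cKO and 35.1 ± 7.84 FPKM in control (SD, n = 2 and 3).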
